A study of Homo sapiens with 10 samples.

Results

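The analysis covered 10 genes of the TGFβ signaling pathway, namely the ligand gene TGFB1, the receptor genes TGFBR1 and TGFBR2, the SMAD genes SMAD2, SMAD3, SMAD4, SMAD6 and SMAD7, and the regulators SMURF2 and SKI. They were taken by symbol from a table of normalized RNA-Seq counts that lists 19590 genes. All 10 averaged 10 or more normalized counts per library, the limit for testing, as did 13110 genes in all. A normalized count is the number of reads on a gene divided by a size factor of its library.

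RNA came from MV4-11, an established AML cell line with monocytic features and an internal tandem duplication in FLT3. The Control group held 4 libraries of MV4-11 cells infected with the control vector. The IRF8 KO group held 4 libraries of MV4-11 clones in which IRF8, a transcription factor of myeloid and B cells, was targeted with lentiviral CRISPR/Cas9. The cells of both groups therefore carry a lentiviral vector. The knockout clones were obtained by limiting dilution from 2 different guide RNAs, and the sources used here do not say which clone each library came from. Since nothing says that replicates were separate cultures, p-values measure only the spread between these libraries, which may be technical.

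TGFβ is secreted in a latent form and, once activated, binds a complex of type II and type I receptor kinases. The type I receptor phosphorylates SMAD2 and SMAD3, which join SMAD4 and enter the nucleus to regulate transcription. The inhibitory SMADs and the ubiquitin ligases they recruit act on the receptors, and co-repressors such as SKI act on the SMAD complex in the nucleus. In hematopoietic cells the pathway is known for restraining the growth of stem and progenitor cells and for its part in monocyte and macrophage differentiation.

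Reads on genes numbered from 39560072 to 65519047 per library. The targeted gene, IRF8, had 36891, 15192, 43016 and 22535 normalized counts in Control replicates 1 to 4, and 6377, 2401, 12903 and 7819.7 in IRF8 KO replicates 1 to 4. Its RNA was lowered but still detected in every knockout library (log2 fold change -2.11 ± 0.51 SE, limma adjusted p = 0.022), a call lost without Control replicate 1 or 3 or IRF8 KO replicate 1 (limma adjusted p of 0.053 to 0.058). The paper reports that Western blots found no IRF8 protein in the knockout clones. It also reports that IRF8 was no longer found at its target genes by ChIP. The counts used here measure RNA only. Of the markers of myeloid cells 8 of 8 had a mean of at least 10, of T cells 0 of 3, of erythroid cells 1 of 4 (KLF1) and of epithelial cells 2 of 4 (KRT8 and KRT18). The summed myeloid markers ranged from 76523 to 87238 in the Control and from 95998 to 330243 in the IRF8 KO libraries. LYZ, the lysozyme gene, made this separation of the sums, and without it the other 7 myeloid markers summed to 61766 to 85505 and to 73309 to 82231. FLT3, with 39931 to 66773 over all libraries, had the largest values among these 7. MPO had 712 to 823 normalized counts in the Control and 8974 to 18443 in the IRF8 KO libraries, without overlap. ITGAM had 62.1 to 112 and 406 to 1152, and CD14 1.88 to 12.9 and 13.8 to 25.6, also without overlap. LYZ, with 1734 to 14757 normalized counts in the Control and 13767 to 248604 in the IRF8 KO libraries, overlapped between the groups. SPI1, CD33, CSF1R and FLT3 also overlapped. The summed epithelial markers ranged from 1473 to 3728 and from 60.7 to 242. The sums of the erythroid markers were 6.04 to 10.4 and 20.7 to 47.4, and those of the T cell markers 0.942 to 2.59 and 0 to 2.13. Their part in the results below was not tested, and in such bulk samples fewer cells of a type and less RNA per cell cannot be told apart. Whole chromosomes also differed between libraries. The median of the 170 tested genes of chromosome 18, which carries SMAD2, SMAD4 and SMAD7, lay at 0.13, 0.11, -0.59 and -0.57 on the log2 scale relative to the Control mean in IRF8 KO replicates 1 to 4, against -0.041 to 0.051 in the Control libraries. The corresponding medians of chromosome 20, which carries 6 of the other pathway genes described below, were -0.93, -0.91, -0.91 and -0.95.

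Of the 10 genes, 1 rose and 2 fell in the IRF8 KO libraries. TGFBR2, the type II receptor, was 1.63 times as high as in the Control, SMAD2 was at 55.1% and SMAD7 at 46.1% of the Control mean, and the remaining 7 genes did not pass the test. Genes were compared with limma on log2(normalized count + 1), on which changes of genes with few reads come out too small, and were called at a Benjamini-Hochberg adjusted p below 0.05 over all 13110 tested genes. At that threshold 18.2% of all tested genes were called, 8.65% as higher and 9.56% as lower in IRF8 KO. The median log2 fold change was -0.24 over the 10 genes and 0.00 over all tested genes. By the rule of the study, a limma p under 0.01 before adjustment here together with a 2-fold change, SMAD7 alone of the 10 was called, where 10.9% of all tested genes were. The groups did not overlap for the same 3 genes that passed the test, TGFBR2, SMAD2 and SMAD7, and for 25.3% of all tested genes. Without the 3 genes of chromosome 18, only TGFBR2 was left among the called genes, 1 of 7, and without IRF8 KO replicates 3 and 4 it was also the only one, 1 of 10, where 9.24% of all tested genes were called.

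**Figure D1:**
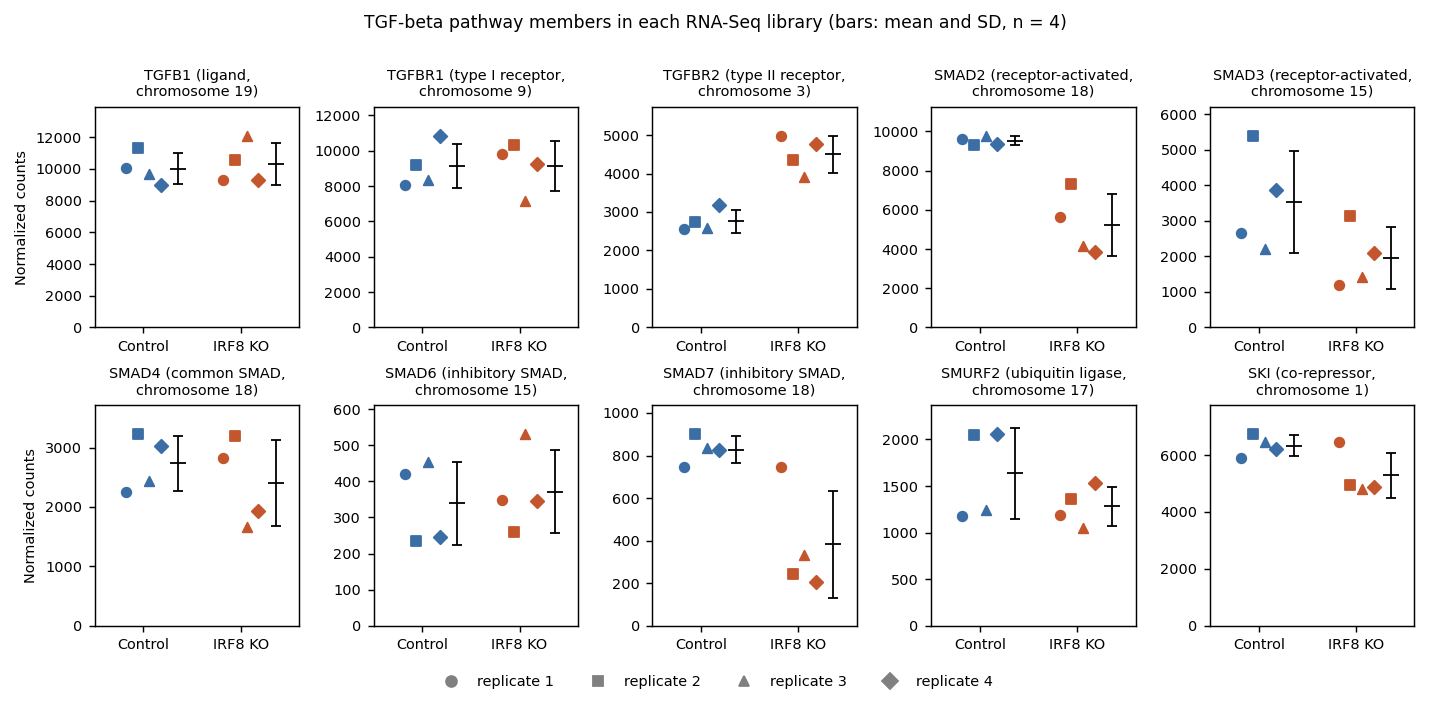
Normalized counts (linear axis from 0) of the 10 genes in the 4 Control libraries (blue) and the 4 IRF8 KO libraries (orange), with a marker shape for each replicate number and bars for the mean and SD of each group (n = 4). TGFBR2 is higher in each knockout library than in any Control library, SMAD2 is lower, and in SMAD7 IRF8 KO replicate 1 stands level with the lowest Control library.

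The ligand and the type I receptor did not differ between the groups beyond the spread of the libraries. TGFB1, which encodes the TGFβ ligand made by most blood cells, had 10036, 11299.5, 9703 and 9003 normalized counts in Control replicates 1 to 4, and 9305, 10562, 12099.6 and 9269.7 in IRF8 KO replicates 1 to 4. The groups overlapped, and the 95% interval of the difference ran from -0.25 to 0.33 on the log2 scale (log2 fold change 0.039 ± 0.13 SE, limma adjusted p = 0.88). TGFBR1, the type I receptor kinase that phosphorylates SMAD2 and SMAD3, had 8086, 9210.4, 8369 and 10855 normalized counts in the Control and 9788, 10340.0, 7137 and 9233 in the IRF8 KO libraries. Here too the groups overlapped, and the interval ran from -0.35 to 0.34 (log2 fold change -0.0052 ± 0.15 SE, limma adjusted p = 0.99).

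TGFBR2, the type II receptor that binds the ligand and activates the type I receptor, rose in the knockout. Its normalized counts were 2545, 2727, 2577 and 3178 in Control replicates 1 to 4, and 4986, 4339, 3904 and 4760.3 in IRF8 KO replicates 1 to 4. Every knockout library was above every Control library, as in 12.3% of all tested genes (exact two-sided permutation test, p = 0.029, the smallest that 4 against 4 libraries allow). The means were 2757 ± 292 and 4497 ± 478 (SD, n = 4 each), and the difference was 0.71 on the log2 scale with a 95% interval of 0.42 to 0.99 (limma adjusted p = 0.0053). TGFBR2 lies on chromosome 3, whose median was between 0.042 and 0.079 in the knockout libraries, and relative to that median the difference was 0.64 (limma adjusted p = 0.0067). It was 0.76 without IRF8 KO replicates 3 and 4 (limma adjusted p = 0.029).

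The gene start regions of the 3 called genes, TGFBR2, SMAD2 and SMAD7, are shown because these genes carry the difference between the groups. RefSeq windows from 250 bases before to 50 after an annotated start (GRCh38.p14) matched 9 of the 10 genes with 24 windows. They were searched on both strands for the ETS and IRF composite element (GGAA and GAAA with 2 bases between them), the repeat bound by IRF proteins (GAAA and GAAA with 2 bases between them), GTCTAGAC, the palindromic SMAD binding element, TGACTCA, the AP-1 site, and GGGCGG, the GC box bound by SP1. Matches of the first and the second motif can overlap. Where a gene has several windows, the one with the most matches is printed, and capitals mark the matches.
TGFBR2, chr3:30606351-30606650, plus strand: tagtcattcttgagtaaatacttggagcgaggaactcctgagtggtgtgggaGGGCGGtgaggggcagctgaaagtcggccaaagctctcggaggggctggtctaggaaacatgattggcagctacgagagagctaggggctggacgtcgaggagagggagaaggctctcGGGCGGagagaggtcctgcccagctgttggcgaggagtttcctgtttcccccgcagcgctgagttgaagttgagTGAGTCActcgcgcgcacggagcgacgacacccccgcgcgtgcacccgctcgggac
SMAD2, chr18:47930610-47930909, minus strand: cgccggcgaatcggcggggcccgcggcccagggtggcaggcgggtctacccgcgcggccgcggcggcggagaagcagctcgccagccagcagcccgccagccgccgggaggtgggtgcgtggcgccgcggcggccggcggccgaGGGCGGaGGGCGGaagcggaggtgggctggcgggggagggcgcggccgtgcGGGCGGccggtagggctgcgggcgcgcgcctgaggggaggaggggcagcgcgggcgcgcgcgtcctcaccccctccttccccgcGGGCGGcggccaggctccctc
SMAD7, chr18:48950916-48951215, minus strand: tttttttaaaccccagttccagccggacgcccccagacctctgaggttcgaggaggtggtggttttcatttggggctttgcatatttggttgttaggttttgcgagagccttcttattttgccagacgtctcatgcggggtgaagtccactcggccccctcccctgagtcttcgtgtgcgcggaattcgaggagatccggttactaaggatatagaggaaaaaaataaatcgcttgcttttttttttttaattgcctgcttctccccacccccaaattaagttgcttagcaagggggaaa

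In these windows TGFBR2 has 1 AP-1 site and 2 GC boxes and SMAD2 has 4 GC boxes, while the letters of the 5 motifs do not occur in that of SMAD7. GC boxes were common, in 45.0% of all 35116 windows and in 12 of the 24 windows of the 9 genes. AP-1 sites were found in 4.95% of all windows and in 2 of the 24, 1 each of TGFBR2 and SMAD3. The composite element and the IRF repeat, present in 2.82% and 3.57% of all windows, were in 0 of the 24. GTCTAGAC was in 0.202% of all windows and in 1 of the 24, that of SMAD6, shown here because SMAD6 is itself an inhibitor of SMAD signaling.
SMAD6, chr15:66702213-66702242, plus strand: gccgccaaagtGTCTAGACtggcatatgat

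The genes of both receptor-activated SMADs had lower means in the knockout, and SMAD2 passed the test. SMAD2 had 9633, 9333, 9789.5 and 9359 normalized counts in Control replicates 1 to 4, and 5618, 7332, 4165 and 3873 in IRF8 KO replicates 1 to 4. The Control libraries lay close together, every knockout library was below every Control library as in 13.0% of all tested genes, and IRF8 KO replicates 3 and 4 were the lowest (log2 fold change -0.91 ± 0.20 SE, limma adjusted p = 0.013). Since chromosome 18 was lower in those libraries, the gene was also set against it. Relative to the Control mean SMAD2 was at -0.76, -0.38, -1.19 and -1.30 in IRF8 KO replicates 1 to 4, and its 20 nearest tested genes had medians of 0.47, 0.10, -0.14 and -0.47. SMAD2 lay below both medians, that of its neighbors and that of its chromosome, in all 4 libraries. The part of the chromosome 18 level in the difference was not tested. Relative to the chromosome median the difference was -0.68 (limma adjusted p = 0.0050). Without IRF8 KO replicates 3 and 4 it was -0.57 and no longer past the threshold (limma adjusted p = 0.061).

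SMAD3, the other receptor-activated SMAD, had 2656, 5403, 2201 and 3857 normalized counts in the Control and 1198, 3139, 1425 and 2101 in the IRF8 KO libraries. The libraries of replicates 2 and 4 were higher than those of replicates 1 and 3 within each group, and the groups overlapped. The difference did not pass the test (log2 fold change -0.86 ± 0.36 SE, limma adjusted p = 0.14). The knockout library was below the Control library of the same number in all 4 pairs, and the fit blocked by replicate number gave a limma adjusted p of 0.0023. SMAD3 lies on chromosome 15, whose median was between -0.094 and 0.050 in the knockout libraries.

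**Figure D2:**
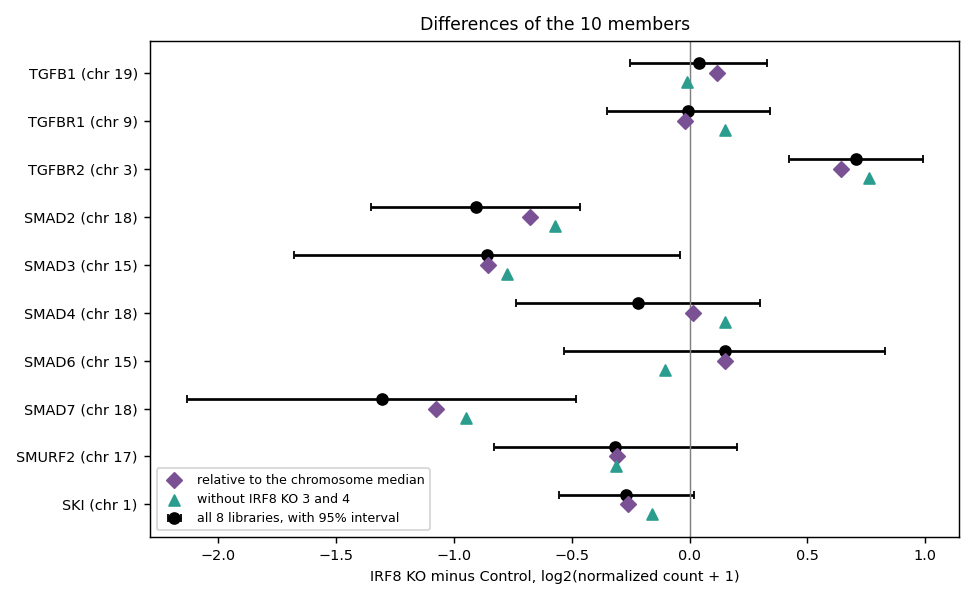
Difference between IRF8 KO and Control for each gene on the log2(normalized count + 1) scale, with the 95% interval over all 8 libraries (black), relative to the median of the chromosome (purple) and without IRF8 KO replicates 3 and 4 (green). The black interval lies above 0 for TGFBR2 and below 0 for SMAD2, SMAD3 and SMAD7, of which SMAD3 did not pass after adjustment, and SMAD4 moves from -0.22 to 0.012 when set against chromosome 18.

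SMAD4, the common partner of the receptor-activated SMADs, did not pass the test, and its level in each knockout library was close to that of its chromosome. It had 2254, 3234, 2433 and 3019.5 normalized counts in Control replicates 1 to 4, and 2832, 3191, 1666 and 1933 in IRF8 KO replicates 1 to 4. IRF8 KO replicates 3 and 4 were below all Control libraries, whereas replicates 1 and 2 lay within the Control range. Relative to the Control mean SMAD4 was at 0.066, 0.24, -0.70 and -0.48, next to medians of 0.032, 0.15, -0.64 and -0.58 for its 20 nearest tested genes. The difference over all libraries was not past the threshold (log2 fold change -0.22 ± 0.23 SE, limma adjusted p = 0.57), it was 0.012 relative to the chromosome median, and it was 0.15 without IRF8 KO replicates 3 and 4.

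**Figure D3:**
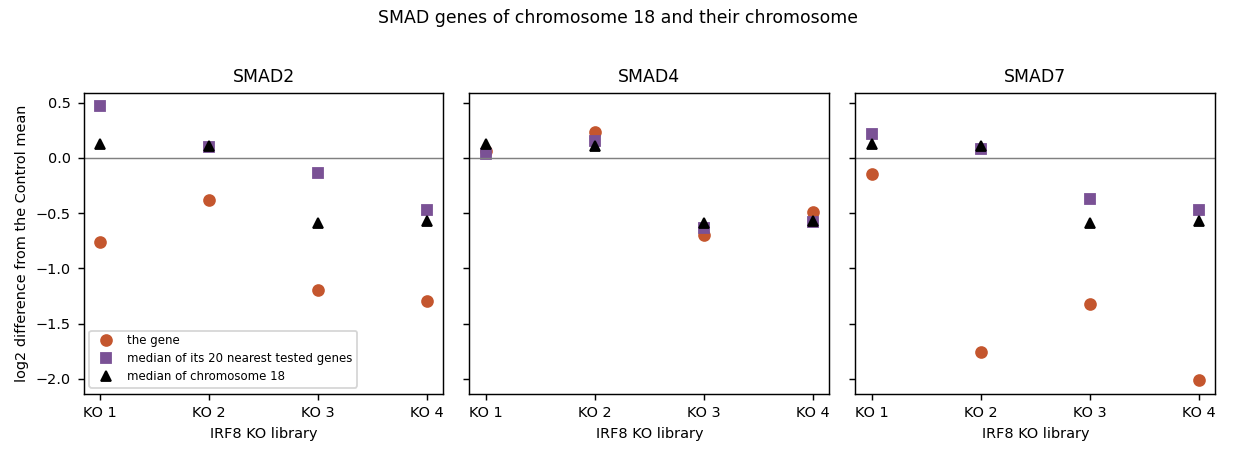
SMAD2, SMAD4 and SMAD7 in the 4 IRF8 KO libraries, as log2 differences from the Control mean (orange), beside the median of the 20 nearest tested genes (purple) and of all tested genes of chromosome 18 (black). SMAD4 lies close to the chromosome median in each library, SMAD2 lies below it in each, and SMAD7 differs from it by -0.27 in IRF8 KO replicate 1 and by -1.87 to -0.73 in the other 3.

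Of the inhibitory SMADs, SMAD7 passed the test and SMAD6 did not. SMAD7, which blocks the type I receptor and is itself induced by TGFβ, had 748, 902, 834 and 828 normalized counts in Control replicates 1 to 4, and 748, 244, 330.4 and 205 in IRF8 KO replicates 1 to 4. IRF8 KO replicate 1 was level with Control replicate 1, less than 0.1 normalized counts below it, and the other 3 knockout libraries had at most 330.4. The gene fell over all libraries (log2 fold change -1.31 ± 0.36 SE, limma adjusted p = 0.038), but leaving out any of the 7 libraries apart from IRF8 KO replicate 1 ended the call (limma adjusted p of 0.070 to 0.093). Without IRF8 KO replicate 1 the log2 fold change was -1.70 (limma adjusted p = 0.0015). Relative to the Control mean SMAD7 was at -0.14, -1.76, -1.32 and -2.01, and its 20 nearest tested genes at 0.21, 0.080, -0.37 and -0.47. SMAD7 was lowest in IRF8 KO replicates 2 and 4, and the part of the chromosome 18 level in the difference was not tested. Relative to the chromosome median the difference was -1.07 (limma adjusted p = 0.052), and without IRF8 KO replicates 3 and 4 it was -0.95 (limma adjusted p = 0.24).

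SMAD6, the inhibitory SMAD that acts mainly on BMP signaling, had 421, 235, 454 and 246 normalized counts in the Control and 349.5, 261, 532 and 345 in the IRF8 KO libraries. Replicates 1 and 3 were above replicates 2 and 4 in the Control, the reverse of the order seen for SMAD3. The groups overlapped, and the 95% interval of the difference ran from -0.53 to 0.83 on the log2 scale (log2 fold change 0.15 ± 0.30 SE, limma adjusted p = 0.80).

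The ubiquitin ligase gene and the co-repressor gene did not pass the test. SMURF2, whose product is recruited to the receptors by SMAD7, had 1183, 2052, 1245 and 2061 normalized counts in the Control and 1191, 1359, 1045 and 1531 in the IRF8 KO libraries. Control replicates 2 and 4 were the highest of the 8 libraries, and Control replicates 1 and 3 lay within the knockout range (log2 fold change -0.32 ± 0.23 SE, limma adjusted p = 0.39). SKI, which binds SMAD complexes and represses their targets, had 5906, 6751, 6463 and 6202 normalized counts in the Control and 6466, 4964, 4825 and 4896 in the IRF8 KO libraries. IRF8 KO replicates 2, 3 and 4 were below all Control libraries and IRF8 KO replicate 1 was above 3 of the 4 (log2 fold change -0.27 ± 0.13 SE, limma adjusted p = 0.18).

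Ratios of related genes within a library were compared next, since they do not depend on its size factor. The log2 ratio of TGFBR2 to TGFBR1 reads was -1.67, -1.76, -1.70 and -1.77 in Control replicates 1 to 4, and -0.97, -1.25, -0.87 and -0.96 in IRF8 KO replicates 1 to 4. The groups did not overlap, and the Control libraries lay within 0.11 of each other. The difference of 0.71 (standard error 0.087) had an exact permutation p of 0.029, the smallest possible for 4 against 4 libraries. After Benjamini-Hochberg adjustment over the 4 ratios compared this p was 0.11. A ratio that alone reaches the smallest p gets 0.11 however large its difference, so the adjusted value cannot decide here. The ratio of SMAD7 to SMAD6 fell short of the threshold already before adjustment, with means of 1.35 ± 0.58 and -0.11 ± 0.86 (SD, n = 4 each, exact permutation p = 0.086, adjusted p = 0.11). The ratio was above 0 in all 4 Control libraries, and in the knockout it was 1.10, -0.10, -0.69 and -0.75 in replicates 1 to 4. Without IRF8 KO replicates 3 and 4 the difference between the groups went from -1.46 to -0.85. The ratio of SMAD3 to SMAD2 was -1.52 ± 0.61 in the Control and -1.47 ± 0.57 in the IRF8 KO libraries (SD, n = 4 each, exact permutation p = 0.94, adjusted p = 0.94), with a difference of 0.049 (standard error 0.42).

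**Figure D4:**
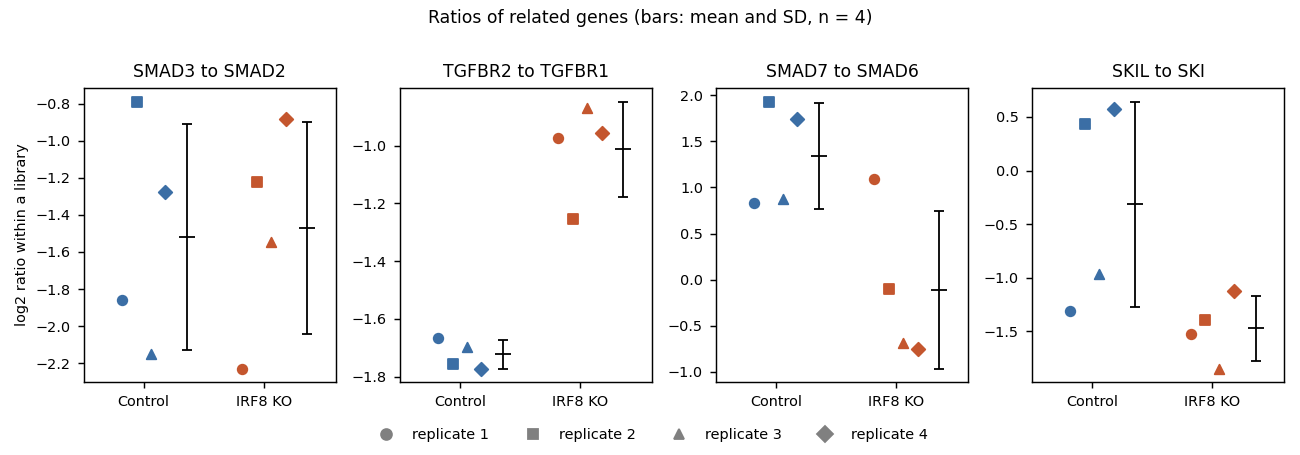
Log2 ratio of normalized counts of related genes within each library, for the Control (blue) and IRF8 KO (orange) groups, with a marker shape for each replicate number and bars for the mean and SD (n = 4). The groups are apart only for TGFBR2 to TGFBR1, where the Control libraries lie between -1.77 and -1.67 and the knockout libraries between -1.25 and -0.87.

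SKIL, the paralog of SKI and a gene that TGFβ induces, showed a wide spread in the Control. It had 2385, 9130.2, 3303 and 9242 normalized counts in Control replicates 1 to 4, and 2241, 1889.7, 1339 and 2240.0 in IRF8 KO replicates 1 to 4. Every knockout library was below every Control library, but Control replicates 2 and 4 were far above replicates 1 and 3, and the adjusted p was just above the threshold (log2 fold change -1.43 ± 0.45 SE, limma adjusted p = 0.059). The blocked fit gave a limma adjusted p of 0.019. The log2 ratio of SKIL to SKI was -0.32 ± 0.96 in the Control and -1.47 ± 0.30 in the IRF8 KO libraries (SD, n = 4 each, exact permutation p = 0.057, adjusted p = 0.11).

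Beyond the 10 genes, 69 further genes of the pathway were listed by role, of which 62 were tested. Of these, 9 rose and 7 fell, 16 in all or 25.8%, against 18.2% of all tested genes. In the fit blocked by replicate number 12 were higher and 11 lower, where 28.7% of all tested genes were called. Their median log2 fold change was -0.03. Of the 7 that fell, 4 lie on chromosome 20, and without the genes of chromosomes 18 and 20 there were 9 higher and 3 lower genes among 55. Without IRF8 KO replicates 3 and 4, 7 of the 62 were called, where 9.24% of all tested genes were, and the balance turned to 2 higher (ITGAV and BAMBI) and 5 lower (LTBP3, FKBP1A, TGIF2, PMEPA1 and TGFBI). The calls of FURIN, DAB2, WWP1, RBL1 and CDKN2B ended in that setting, as did those of TGFB2, THBS1, BMPR1A and CCN2.

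Among genes of further ligands and of the storage and activation of latent TGFβ, 4 of 10 tested genes rose, 1 fell and 5 did not pass. These calls make 50.0% of the list, where 18.2% of all tested genes were called, 8.65% as higher and 9.56% as lower. Without IRF8 KO replicates 3 and 4, 2 of the 10 were called, where 9.24% of all tested genes were. The other 3 of this list, LRRC32, ITGB6 and ITGB8, were too low to be tested. They had at most 1.97, 3.82 and 2.82 normalized counts in any library. TGFB2, which encodes another TGFβ ligand, had 20.9, 8.63, 38.7 and 5.65 normalized counts in the Control and 800.3, 60.2, 562 and 334 in the IRF8 KO libraries (log2 fold change 4.34 ± 0.85 SE, limma adjusted p = 0.0086). The Control values of TGFB2 rest on few reads, the knockout libraries differed widely among each other, and without IRF8 KO replicates 3 and 4 the limma adjusted p was 0.11. THBS1, thrombospondin 1, an activator of latent TGFβ, had 28.2, 25.0, 23.6 and 25.4 normalized counts in the Control and 2473, 73.6, 543 and 418 in the IRF8 KO libraries (log2 fold change 4.09 ± 0.87 SE, limma adjusted p = 0.012), and IRF8 KO replicate 1 was again the highest and replicate 2 the lowest of the knockout. For THBS1 the limma adjusted p was 0.11 without IRF8 KO replicates 3 and 4. ITGAV, the integrin chain that binds the latent complex, rose from 844 ± 67.3 to 2905 ± 806 normalized counts (± SD of 4 libraries, log2 fold change 1.74 ± 0.20 SE, limma adjusted p = 6.8e-04). FURIN, the protease that cleaves the TGFβ precursor, had 3524, 8519, 3375 and 5977 normalized counts in the Control and 8640.2, 11905, 11889.7 and 11283 in the IRF8 KO libraries (log2 fold change 1.13 ± 0.29 SE, limma adjusted p = 0.029), with IRF8 KO replicate 1 just above the highest Control library. The call of FURIN was lost without Control replicate 1 or 3 or IRF8 KO replicate 2, 3 or 4 (limma adjusted p of 0.061 to 0.075). LTBP3, a protein that anchors latent TGFβ in the matrix, fell from 343 ± 34.2 to 161 ± 65.4 normalized counts (± SD of 4 libraries, log2 fold change -1.17 ± 0.28 SE, limma adjusted p = 0.021). The call of LTBP3 was lost without Control replicate 1, 2 or 3 or IRF8 KO replicate 1 or 4 (limma adjusted p of 0.051 to 0.056). NRROS, which holds latent TGFβ on the surface of myeloid cells, had 6399 ± 217 and 6574 ± 481 normalized counts (SD, n = 4 each) and did not pass (log2 fold change 0.037 ± 0.10 SE, limma adjusted p = 0.86).

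Among the other receptors and co-receptors, 1 of 11 tested genes rose, 2 fell and 8 did not pass (27.3% called, against 18.2% of all tested genes). BAMBI, a pseudoreceptor that inhibits TGFβ signaling, had 20.9, 38.0, 30.1 and 19.8 normalized counts in the Control and 99.1, 96.5, 202 and 129 in the IRF8 KO libraries. It was low in all libraries but did not overlap between the groups (log2 fold change 2.22 ± 0.33 SE, limma adjusted p = 0.0025). BMPR1A, a type I receptor for BMP, fell from 923 ± 64.8 to 619 ± 45.2 normalized counts (± SD of 4 libraries, log2 fold change -0.58 ± 0.12 SE, limma adjusted p = 0.012, and 0.086 without IRF8 KO replicates 3 and 4). FKBP1A, which holds type I receptors inactive in the absence of ligand, fell from 12605 ± 1639 to 6403 ± 967 (± SD of 4 libraries, log2 fold change -0.98 ± 0.15 SE, limma adjusted p = 0.0024). It lies on chromosome 20, and relative to that chromosome's median its log2 difference was -0.054.

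In the list of other SMADs and SMAD anchors 1 of 5 tested genes rose, and 4 did not pass. SMAD1, a receptor-activated SMAD of the BMP branch, had 0 reads in all 8 libraries, which allows up to 3 reads in each, whereas SMAD5, of the same branch, had 1773 ± 83.0 and 1973 ± 399 normalized counts (± SD of 4 libraries, log2 fold change 0.14 ± 0.15 SE, limma adjusted p = 0.59). DAB2, an adaptor that links the receptors to SMAD2 and SMAD3, had 327, 539, 299.6 and 591 normalized counts in the Control and 527, 1146, 1146 and 1568 in the IRF8 KO libraries. It rose although the lowest knockout library lay within the Control range (log2 fold change 1.28 ± 0.36 SE, limma adjusted p = 0.040). DAB2 lies on chromosome 5, whose median was 0.11, 0.10, 0.34 and 0.40 in IRF8 KO replicates 1 to 4, and relative to it the limma adjusted p was 0.060. The call of DAB2 was also lost without Control replicate 1 or 3 or IRF8 KO replicate 2, 3 or 4 (limma adjusted p of 0.080 to 0.10).

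Of 8 tested ubiquitin ligases and deubiquitinases, only WWP1, a ubiquitin ligase related to SMURF2, was called (12.5%, against 18.2% of all tested genes). It went from 1609.9 ± 114 to 2194 ± 222 normalized counts (± SD of 4 libraries, log2 fold change 0.44 ± 0.12 SE, limma adjusted p = 0.033). The call was lost without any library other than IRF8 KO replicate 2 (limma adjusted p of 0.059 to 0.093) and relative to the chromosome median (0.077). Of 7 tested nuclear co-regulators, 2 fell, 0 rose and 5 did not pass (28.6% called, against 18.2% of all tested genes). Both of those that fell, the co-repressor TGIF2 and the pocket protein RBL1, lie on chromosome 20. TGIF2 went from 3717 ± 157 to 1832 ± 206 normalized counts (± SD of 4 libraries, log2 fold change -1.03 ± 0.11 SE, limma adjusted p = 5.1e-04), and relative to the chromosome median its log2 difference was -0.10. RBL1 went from 4195 ± 1081 to 2373 ± 456 (± SD of 4 libraries, log2 fold change -0.81 ± 0.22 SE, limma adjusted p = 0.034), and its relative difference was 0.12. The call of RBL1 was lost without Control replicate 1 or 3 or IRF8 KO replicate 1, 3 or 4 (limma adjusted p of 0.053 to 0.090). In the TAK1 branch, the kinase module that carries TGFβ signals without SMADs, 0 of 5 genes were called, against 18.2% of all tested genes.

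Of 16 tested genes known as targets of TGFβ, 2 rose, 2 fell and 12 did not pass. The share called was 25.0%, against 18.2% of all tested genes. PMEPA1, a target that limits SMAD2 and SMAD3 activation, had 232, 281, 337 and 229.7 normalized counts in the Control and 13.9, 6.69, 16.3 and 4.92 in the IRF8 KO libraries (log2 fold change -4.69 ± 0.38 SE, limma adjusted p = 1.4e-04). It lies on chromosome 20, and relative to the chromosome median the log2 difference was -3.76 (limma adjusted p = 3.7e-04). TGFBI, a matrix protein of monocytes and macrophages, had 191, 141, 291 and 551 normalized counts in the Control and 49.0, 10.5, 16.3 and 19.7 in the IRF8 KO libraries (log2 fold change -3.60 ± 0.54 SE, limma adjusted p = 0.0026), and lies on chromosome 5, which was not lower. CCN2, a matrix-associated growth factor, moved the other way, with 78.8, 62.1, 37.6 and 50.8 normalized counts in the Control and 136, 667, 553 and 407 in the IRF8 KO libraries (log2 fold change 2.75 ± 0.49 SE, limma adjusted p = 0.0054, and 0.077 without IRF8 KO replicates 3 and 4). CDKN2B, the cell cycle inhibitor p15, rose from 244 ± 23.2 to 355 ± 32.7 normalized counts (± SD of 4 libraries, log2 fold change 0.54 ± 0.16 SE, limma adjusted p = 0.045), a call that was lost with each library left out in turn (limma adjusted p of 0.052 to 0.12) and relative to the chromosome median (0.051).

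**Figure D5:**
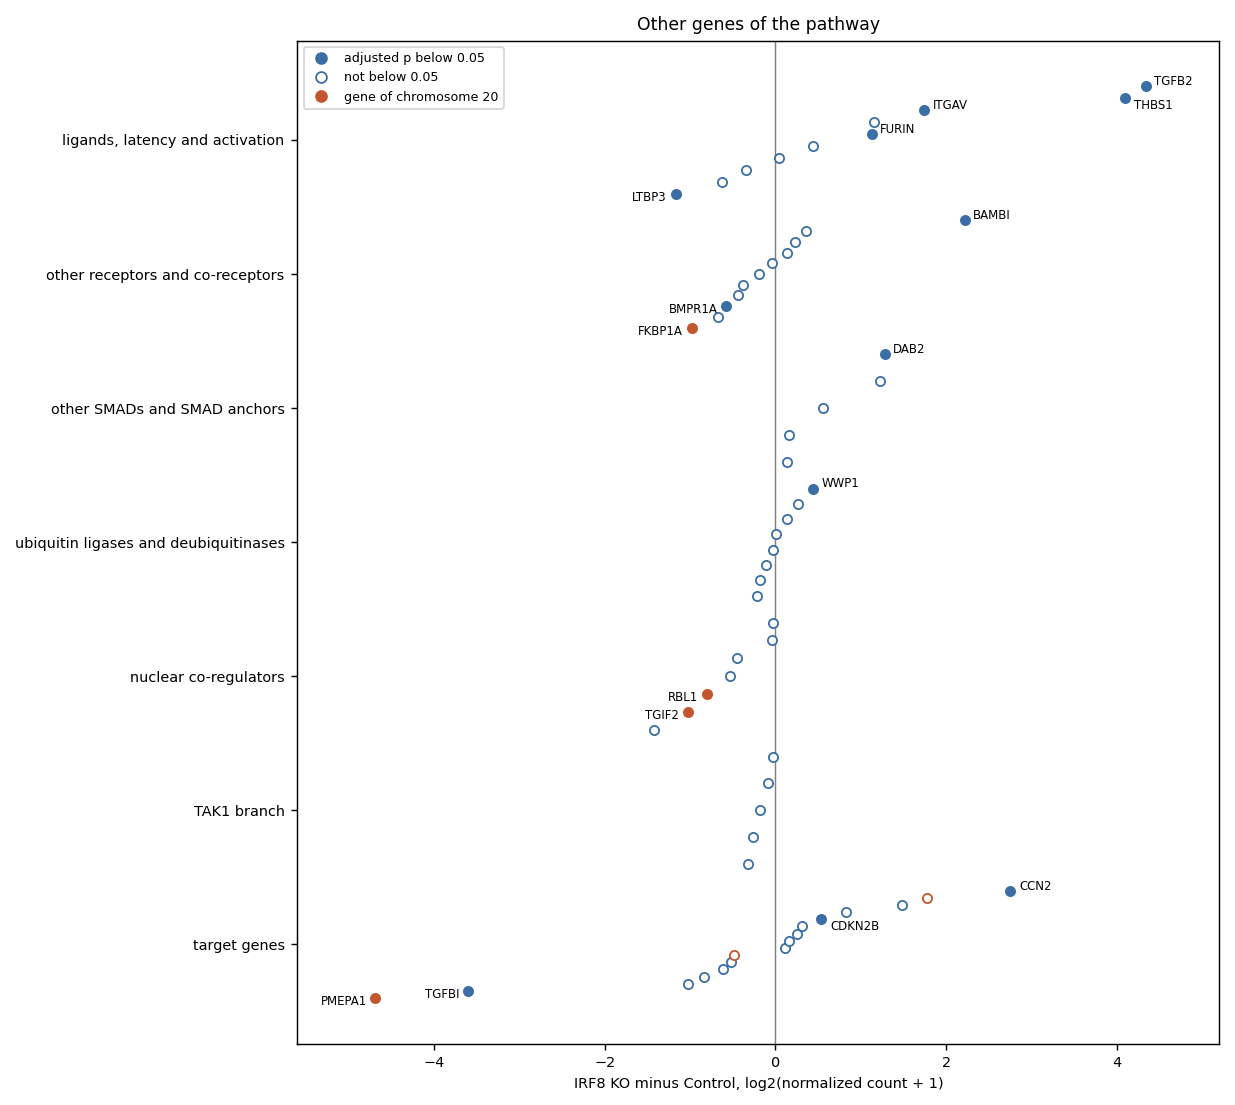
Difference between IRF8 KO and Control on the log2(normalized count + 1) scale for the 62 tested pathway genes beyond the 10, in rows by list. Filled points passed the test (16 genes, named), open points did not, and orange marks the genes of chromosome 20, which hold 4 of the 7 that fell.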

How the data were processed

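RNA of 4 Control and 4 IRF8 KO libraries of MV4-11 had been prepared with the TruSeq Stranded mRNA kit. The authors used RNA-Star for alignment, GENCODE v32 for gene models and featureCounts for counting. The signal they deposited is each library's gene counts over its DESeq2 size factor. The sources used here give neither the genome build of this step nor the strand setting of the counting. The authors' own comparison table (fold changes, standard errors and p-values) and the ChIP-Seq samples were not used here. The lowest values gave the value of 1 read, and 100.0% of the values were whole within 0.01 reads, so that depth was known. By these reads, the Control libraries held 48762519 to 65519047 and the IRF8 KO libraries 39560072 to 54048461 reads on genes. No sample columns were left out (0).

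Genes averaging 10 or more normalized counts were compared on log2(value + 1) with limma 3.58.1 (trended, robust prior) in R 4.3.3, without a block, as the study's methods do not use one. The step was tested on simulated data. The wild type columns were taken as the Control replicate of that number. As a check of pairing, deviations from the group mean were correlated across genes between same-numbered libraries, with r of 0.37 (replicate 1), 0.48 (2), 0.45 (3) and 0.50 (4). All 4 exceeded 0.1, but libraries 1 and 3, and 2 and 4, correlated across the groups about as closely (0.40 to 0.47). Control replicate 1 had r of 0.37 with IRF8 KO replicate 1 and 0.47 with IRF8 KO replicate 3. Pairing by number was therefore not established, and blocked values are given as an alternative where they change a call. Exact permutation tests used scipy 1.17.1. Chromosomes, gene order and promoter windows came from RefSeq (GRCh38.p14). No transcript lengths were used, so levels are not compared between genes. In RefSeq SMAD3 overlaps the lncRNA gene SMAD3-AS1, whose reads may not be separated from it.

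The 10 genes and the lists were chosen with earlier results of these data known. Of the other pathway genes, the text names at most 15 called ones by size of log2 fold change, plus SKIL. NRROS, LRRC32, ITGB6, ITGB8, SMAD1, SMAD5, WWP1, CDKN1A, KLF10, ID1, ID3, ACVR1, SMAD9, CREBBP, EP300 and BHLHE40 fall outside that rule and were picked with their values in view. Alternatives covered the pseudocount, filter, scaling, limma prior, count tests on recovered reads (edgeR 4.0.16, DESeq2 1.42.0), the block, left-out libraries and chromosome medians. Some items are not reported here. Leaving out the genes of chromosomes 18 and 20 was chosen after seeing the data.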

Additional observations from a re-analysis of the deposited data

Results flagged for a closer look

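Among 30 groups of 4 values (the 10 genes, IRF8 and the 4 ratios in each group), Dixon's test found 1 library far from the rest of its group, where chance gives about 1 in 20 groups. SKI had 6466 normalized counts in IRF8 KO replicate 1, while the other 3 knockout libraries lay between 4825 and 4964, so that the gap made up 0.90 of the range on the log2 scale.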

How the results depend on the processing

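With the pseudocount, the filter or the scaling changed and with limma without the trend, the 3 calls among the 10 genes were kept. SMAD7 was no longer called with edgeR (-1.13, adjusted p = 0.075), relative to the chromosome median (-1.07) or without IRF8 KO replicates 3 and 4 (-0.95), and was called with DESeq2 (adjusted p = 0.020). SMAD2 was no longer called without IRF8 KO replicates 3 and 4 (-0.57). With the replicate block SMAD3 was called (-0.86, limma adjusted p = 0.0023), and no other call among the 10 changed. Small differences turned in sign for TGFB1 with quantile normalization (-0.0076), for TGFBR1 with DESeq2 (0.0015), for SMAD4 relative to the chromosome median (0.012), and without IRF8 KO replicates 3 and 4 for TGFB1 (-0.0091), TGFBR1 (0.15), SMAD4 (0.15) and SMAD6 (-0.10). Without those 2 libraries, 1 of the 10 and 7 of the other pathway genes (2 higher, 5 lower) were called, and without the genes of chromosome 18, 1. With each library left out in turn, the log2 fold change ranged from -0.041 to 0.10 for TGFB1, -0.070 to 0.11 for TGFBR1, -0.038 to 0.31 for SMAD6 and -1.70 to -1.07 for SMAD7. It was -0.37 (without IRF8 KO replicate 2) to -0.060 (without IRF8 KO replicate 3) for SMAD4 and -0.46 to -0.19 for SMURF2. The number of called genes then ranged from 2 to 3 of the 10 and from 10 to 15 of the others, and no left-out library changed the call of TGFBR2 or SMAD2. Settings with left-out libraries hold fewer samples, and the cause of the changes was otherwise not tested. Without IRF8 KO replicates 3 and 4 the difference in the log2 ratio was 0.61 for TGFBR2 to TGFBR1, -0.85 for SMAD7 to SMAD6, -0.21 for SMAD3 to SMAD2 and -1.14 for SKIL to SKI. With each library left out in turn it was 0.66 to 0.79, -1.86 to -1.24, -0.16 to 0.30 and -1.49 to -0.86. With the numbers paired or a library left out, the exact test cannot reach 0.05 for a ratio.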

Other observations

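Some TGFβ target genes that did not pass the test had a wide spread within the groups. CDKN1A, the cell cycle inhibitor p21, had 317, 1295, 258 and 1264 normalized counts in Control replicates 1 to 4, and 181, 699.7, 344 and 729 in IRF8 KO replicates 1 to 4. KLF10, a transcription factor induced early by TGFβ, had 817, 2253, 805 and 1619 in the Control and 1293, 1088, 456 and 684 in the IRF8 KO libraries. In the Control, replicates 2 and 4 were above replicates 1 and 3 for both genes, as they were for SKIL, SMAD3 and SMURF2. KLF10 did not keep that order in the knockout, where replicate 1 was the highest, and SKIL was highest in replicates 1 and 4. Neither gene passed the test, and KLF10 had the smaller adjusted p (log2 fold change -0.61 ± 0.43 SE, limma adjusted p = 0.37).

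ID1 and ID3, inhibitors of basic helix-loop-helix factors that BMP and TGFβ regulate, had the opposite order. ID1 had 146, 23.3, 279 and 50.8 normalized counts in the Control and 844, 81.2, 937 and 107 in the IRF8 KO libraries, and ID3 had 23.3, 11.2, 127 and 11.3 in the Control and 219.5, 9.56, 423 and 27.5 in the knockout. Replicates 1 and 3 were above replicates 2 and 4 in both groups for both genes. ID1 was higher in the knockout library in all 4 same-numbered pairs, with a limma adjusted p of 0.28 without a block and 0.0032 in the fit blocked by replicate number. The block also gave limma adjusted p-values below the threshold for ACVR1 (0.028), SMAD9 (0.018), CREBBP (0.015), EP300 (0.048) and BHLHE40 (0.0045), which did not pass without it. The sources used here do not say what the replicate numbers stand for.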
